A study of Pan troglodytes with 8 samples.

Results

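BTG1, BTG2 and BTG3, TOB1 and TOB2, ZFP36, ZFP36L1 and ZFP36L2, and GADD45A and GADD45G are 10 genes whose products restrain cell division or shorten the life of messenger RNAs. They were taken by symbol from a table of read counts on the chimpanzee genome build panTro6, where they are 10 of 60583 named rows. The same symbols were read in a table of the same libraries on the human build hg38, where they are 10 of 18137 rows. All 10 rows were found in both tables, 9 members had counts on panTro6 and passed the filter on low counts there, and all 10 did so on hg38. The exception was BTG2, which was listed at 0 in every panTro6 library and is described from the hg38 table.

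The libraries came from brain organoids of chimpanzee (Pan troglodytes) grown from SandraA, a single induced pluripotent stem cell line, and harvested at week 8 give or take 3 days. Cells were sorted by fluorescence into radial glia of the apical (aRG) and the basal (bRG) kind, basal intermediate progenitors (bIP) and BCL11B-positive neurons (N), and each population has 2 libraries, written library 1 and library 2 after the numbers in their labels. No population carried a treatment or an engineered allele that the labels name, and all 8 libraries share the 1 line, so none of the comparisons is between individuals. The series title places the work in a study of how basal radial glia take their shape and of neocortex evolution.

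Apical radial glia are the stem cells whose feet line the ventricle, basal radial glia have detached from it, intermediate progenitors divide a few more times, and neurons have left the cycle. Proteins of the BTG and TOB family bind the CNOT7 and CNOT8 deadenylases and recruit the CCR4-NOT complex to messenger RNAs. Proteins of the ZFP36 family hold zinc fingers that bind AU-rich elements in transcripts and recruit the same complex, and GADD45 proteins bind PCNA, CDK1 with cyclin B1, and the kinase MAP3K4. Several members, among them BTG2 and ZFP36, are also known as genes that rise quickly when tissue is dissociated or cells are stimulated.

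Library totals were 24649971 to 33245892 counts on panTro6 and 11635116 to 16447389 on hg38. The identity genes SOX2 (stem cells), EOMES (intermediate progenitors) and BCL11B had their highest means in aRG, bIP and N in turn. HOPX and FAM107A, markers of basal radial glia, were at 30.8 ± 3.70 and 33.5 ± 2.67 CPM (read counts relative to library size) in bRG and at 45.8 ± 5.52 and 36.9 ± 7.03 in aRG (mean ± SD over 2 libraries here and below). TNC, another such marker, had the higher mean in bRG, at 108 ± 78.6 CPM against 88.0 ± 67.2 in aRG. Of 6 markers of that cell type, 1 had a fold change above 0 and 0 were called as higher in bRG. The test of bRG against aRG called only 1 of 35382 genes, as lower, so this count says little about the markers. Summed markers of choroid plexus epithelium (9 genes) were at 997 and 3332 CPM in aRG and 49.7 to 91.1 in the other libraries, and 12 markers of mesenchyme, vessels and immune cells at 435 and 2065 CPM in aRG and 65.8 to 402 elsewhere. TTR alone was at 819 and 3092 CPM in aRG. TTR, CLIC6, HTR2C, FOLR1 and AQP1 were higher in aRG library 2, and TRPM3, KCNJ13, IGFBP7 and OTX2 in aRG library 1. In the second list COL1A1, COL3A1 and COL1A2 were at 941, 554 and 307 CPM in aRG library 2, while CDH5 had its highest mean in N. Of the immune markers in that list AIF1 was listed at 0 in all libraries, CSF1R was at 19.4 to 35.04 CPM and PTPRC at 0.647 to 3.66. BTG2, which has hg38 counts, was also at 0 in every panTro6 library, so the 0 of AIF1 does not show absence. Markers of interneurons (8 genes) summed to 3.56 to 17.9 CPM and those of oligodendrocytes and astrocytes (8 genes) to 8.46 to 83.4. MALAT1, an abundant nuclear RNA, took 7.33% to 8.57% of counts in the libraries numbered 1 and 3.61% to 6.47% in those numbered 2. No gene with the symbol prefix MT- had counts in the panTro6 table, and mitochondrial genes under other symbols were not looked for. The mitochondrial share was therefore not used as a measure of RNA quality.

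ZFP36L1, which encodes a zinc finger protein that speeds the decay of AU-rich transcripts, showed the largest differences of the 10 members. It stood at 1105 and 636 CPM in aRG, 793 and 398 in bRG, 61.9 and 56.1 in bIP, and 15.8 and 10.3 in N. The libraries of aRG and bRG overlapped, every bIP library lay below both kinds of radial glia, and both N libraries lay below bIP. Means were 871 ± 331 CPM in aRG, 596 ± 279 in bRG, 59.0 ± 4.11 in bIP and 13.0 ± 3.86 in N.

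CPM values are counts scaled to library size with factors from the TMM method, and log2 fold changes come from the quasi-likelihood test of edgeR with adjustment over all 35382 genes tested and a threshold of 0.05. The fitted fold change of ZFP36L1 from aRG to bIP was -3.88 (SE 0.40, edgeR adjusted p = 0.000561), a 14.8-fold lower level. From bRG to bIP it was -3.34 (SE 0.39, edgeR adjusted p = 0.00547). From bIP to N it was -2.18 (SE 0.38, edgeR adjusted p = 0.0100). ZFP36L1 therefore fell at each of these steps, with ratios of mean levels of 10.1 between bRG and bIP and 4.52 between bIP and N. Across the whole span from aRG to N the change was -6.06 (SE 0.45, edgeR adjusted p = 6.96e-06), and from bRG to N it was -5.51 (SE 0.44, edgeR adjusted p = 1.77e-05).

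Within the libraries numbered 1 the log2 difference of ZFP36L1 between N and aRG was -6.04, and within those numbered 2 it was -5.82. Library 2 had the lower ZFP36L1 level of the pair in every population, and the part of other cell types in the aRG level was not tested. In aRG, library 2 was also the one with the larger choroid plexus and mesenchymal sums. With that library left out, the calls of ZFP36L1 stood, as they did in all alternatives for the comparisons other than N with bIP. That comparison lost its call without N library 2 (-1.90, edgeR adjusted p = 0.0574). Nothing in the labels tells if a population's pair of libraries stems from different cultures, and these p-values then measure only the spread between libraries, which may be technical. In sorted bulk RNA, fewer cells of a type and less RNA per cell cannot be told apart.

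**Figure D1:**
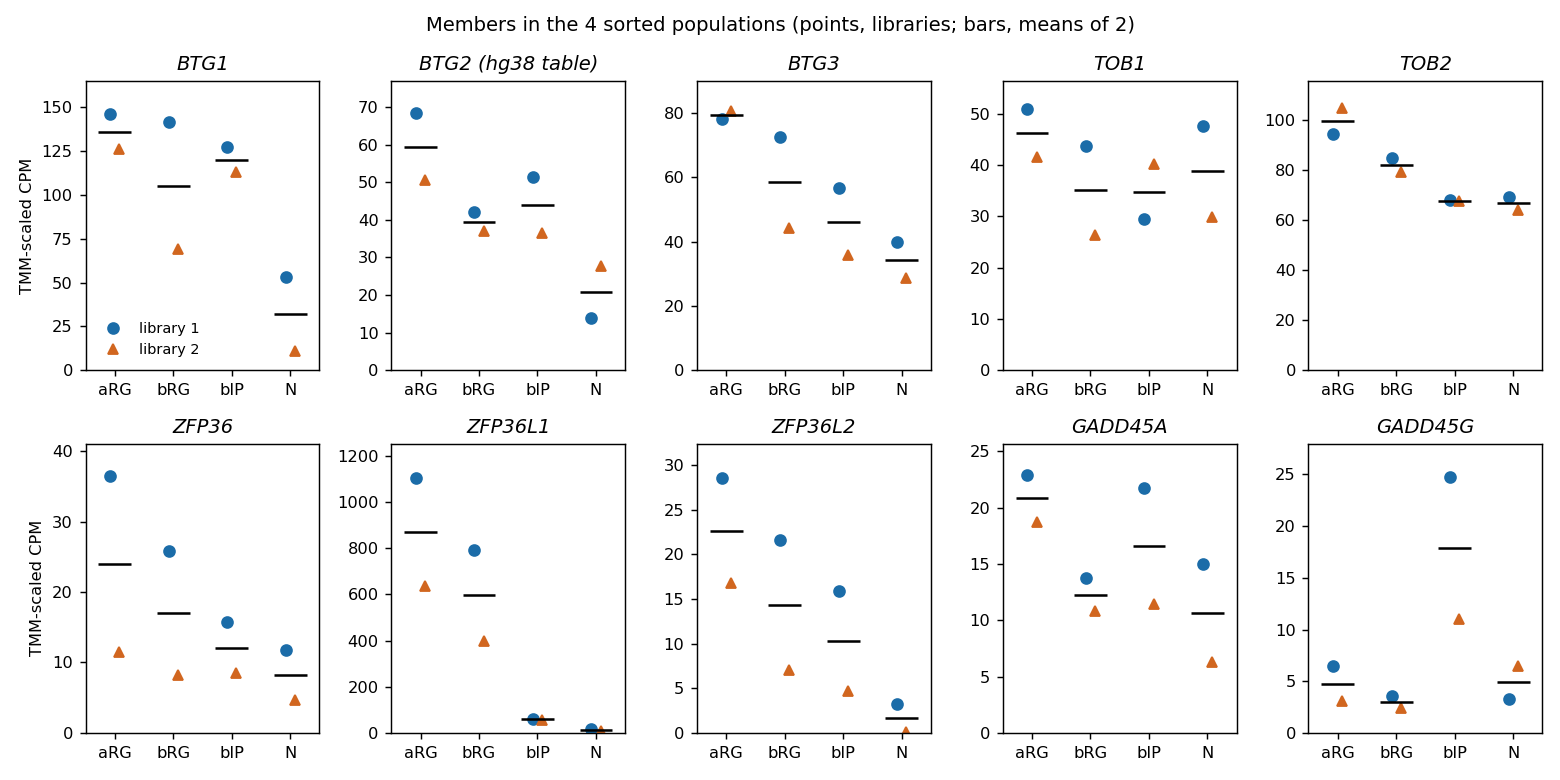
Level of each member in TMM-scaled CPM (vertical axes, linear and starting at 0) in the 4 sorted populations, with a point for each library and a bar for the mean of 2. ZFP36L1 goes from 871 CPM in aRG to 13.0 in N, GADD45G is highest in bIP at 17.9 CPM, and BTG2 is drawn from the hg38 table.

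ZFP36L2, a close paralog of ZFP36L1 with the same class of zinc fingers, was lower in N than in aRG. Its levels were 28.6 and 16.7 CPM in aRG, 21.6 and 7.09 in bRG, 15.9 and 4.64 in bIP, and 3.21 and 0.0863 in N. Both N libraries were below all others, while neighbours in the order aRG, bRG and bIP overlapped. The N library 2 value rests on 2 counts, for which counting error alone (exact Poisson, 95%) spans 0.242 to 7.22 counts or 0.0105 to 0.312 CPM. The difference between N and aRG was -3.77 (SE 1.07, edgeR adjusted p = 0.0449).

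That call of ZFP36L2 depended on single libraries and on the tool. Without N library 2 the fold change was -2.81 (edgeR adjusted p = 0.0672), and without N library 1 it was -7.97. Without aRG library 1 the edgeR adjusted p was 0.0838, and DESeq2 gave an adjusted p of 0.0617. Against bIP and against bRG the N level was lower by -2.62 (edgeR adjusted p = 0.241) and -3.11 (edgeR adjusted p = 0.118), neither past the threshold in this fit, while without N library 1 both passed (edgeR adjusted p = 0.00683 and 0.00301).

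ZFP36, or tristetraprolin, is the founding member of the family and an immediate early gene. It was at 36.4 and 11.5 CPM in aRG, 25.8 and 8.22 in bRG, 15.7 and 8.50 in bIP, and 11.7 and 4.62 in N. The library numbered 1 was the higher of the pair in every population, and neighbouring populations in the order aRG, bRG, bIP and N overlapped. The N mean of 8.17 ± 5.02 CPM against 24.0 ± 17.6 in aRG gave a log2 fold change of -1.55 (SE 0.68, edgeR adjusted p = 0.203). ZFP36 thus had the same order of means as both paralogs, with a difference that did not pass the test in this fit but did with no filter on low counts (-1.59, edgeR adjusted p = 0.00581).

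BTG1, an antiproliferative cofactor that is abundant in resting cells of other tissues, was lower in N than in aRG. Its levels were 146.0 and 126 CPM in aRG, 141 and 69.3 in bRG, 127 and 113 in bIP, and 53.3 and 10.8 in N. The 3 progenitor populations overlapped and both N libraries lay below them. The fold change between N and aRG was -2.08 on the log2 scale (SE 0.56, edgeR adjusted p = 0.0360), a 4.24-fold lower level.

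The 2 N libraries differed in BTG1 by more than those of aRG or bIP, so the size of this change varied with the library: it was -1.44 within the libraries numbered 1 and -3.43 within those numbered 2. Without N library 2 it was -1.35 (edgeR adjusted p = 0.0748), and without aRG library 1 it was -2.06 (edgeR adjusted p = 0.0536). N was also below bIP (-1.90, edgeR adjusted p = 0.109) and bRG (-1.71, edgeR adjusted p = 0.106), short of the threshold in this fit, while DESeq2 called both (adjusted p = 0.00673 and 0.0145).

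BTG2 is the member of the BTG family best known in the developing cortex, where it marks progenitors about to make neurons. On hg38 its counts ran from 179 to 846 per library, while on panTro6 they were 0 in all 8, where 3 counts, the limit that a count of 0 allows, would be 0.0884 to 0.129 CPM. Its hg38 levels were 68.5 and 50.5 CPM in aRG, 42.0 and 37.0 in bRG, 51.4 and 36.4 in bIP, and 13.9 and 27.7 in N. The progenitor populations overlapped along the order of means, both N libraries were the lowest, and the bIP mean of 43.9 ± 10.6 CPM lay between aRG (59.5 ± 12.7) and bRG (39.5 ± 3.56).

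In the hg38 fit the fold change of BTG2 between N and aRG was -1.52 (SE 0.37, edgeR adjusted p = 0.0148), a 2.87-fold lower level. This call was lost without aRG library 1 (edgeR adjusted p = 0.0810) and without N library 1 (-1.10, edgeR adjusted p = 0.0831). BTG2 was at -1.08 in N against bIP (edgeR adjusted p = 0.121) and at -0.93 in N against bRG (edgeR adjusted p = 0.132). No difference between bIP and either kind of radial glia passed the test.

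BTG3, a relative of BTG1 and BTG2 that carries the same BTG domain, declined in means along aRG, bRG, bIP and N. It stood at 78.2 and 80.6 CPM in aRG, 72.6 and 44.4 in bRG, 56.5 and 35.8 in bIP, and 39.9 and 28.5 in N. The aRG libraries were above all others, and bRG, bIP and N overlapped with their neighbours in this order. N was lower than aRG by a log2 fold change of -1.22 (SE 0.34, edgeR adjusted p = 0.0395).

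The edgeR adjusted p of BTG3 was 0.226 without N library 2 (-0.99), 0.0993 without aRG library 2 and 0.0737 without aRG library 1. Its differences of -0.78 between bIP and aRG (edgeR adjusted p = 0.327) and -0.77 between N and bRG (edgeR adjusted p = 0.237) were not called. In another chimpanzee assembly, NHGRI_mPanTro3-v2.0, BTG3 overlaps CXADR, a cell adhesion gene, and without strand the reads of overlapping genes cannot be told apart. CXADR went in the other direction, from 87.0 ± 23.3 CPM in aRG to 405 ± 116 in N.

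TOB1, a BTG family member with a longer tail that binds poly(A)-binding protein, had no called difference. Its levels were 50.9 and 41.5 CPM in aRG, 43.8 and 26.3 in bRG, 29.5 and 40.1 in bIP, and 47.6 and 29.9 in N. All neighbours in the order of means (aRG, N, bRG, bIP) overlapped, and the highest mean was 46.2 ± 6.71 CPM and the lowest 34.8 ± 7.50. TOB1-AS1, a transcript from the opposite strand of the locus, had 61 to 177 counts per library against 693 to 1406 for TOB1.

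TOB2, the paralog of TOB1, had a small spread between the libraries of a population. It was at 94.4 and 105 CPM in aRG, 85.0 and 79.5 in bRG, 68.1 and 67.7 in bIP, and 69.5 and 64.2 in N. The aRG libraries lay above bRG and these above bIP, while bIP and N overlapped. The differences were small and not past the threshold in this fit, with -0.56 for bIP against aRG (SE 0.24, edgeR adjusted p = 0.342) and -0.58 for N against aRG (SE 0.24, edgeR adjusted p = 0.183). With the stricter filter of at least 5 CPM in 2 libraries, edgeR did call TOB2 in N against aRG. That setting called 3653 of all genes there, against 3421.

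GADD45G, a stress sensor that binds PCNA and is known to be expressed by committed progenitors, was the 1 member with its highest mean in bIP. It stood at 6.45 and 3.07 CPM in aRG, 3.57 and 2.46 in bRG, 24.8 and 11.01 in bIP, and 3.29 and 6.52 in N. Both bIP libraries were above all 6 others, and aRG, bRG and N overlapped. The test over all 4 populations called GADD45G (edgeR adjusted p = 0.0428).

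None of the pairwise tests of GADD45G passed in the fit used throughout. The log2 fold change was 1.91 for bIP against aRG (SE 0.60, edgeR adjusted p = 0.141), 2.57 for bIP against bRG (SE 0.62, edgeR adjusted p = 0.0851) and -1.87 for N against bIP (SE 0.60, edgeR adjusted p = 0.145). Nor was any of the 3 called with DESeq2 size factors, a robust fit, halved counts, the stricter filter or only the populations compared. On hg38 they were not called either (edgeR adjusted p = 0.0876, 0.0581 and 0.0945). DESeq2 called all 3, with adjusted p = 0.0167, 0.000482 and 0.0197, and so did edgeR with no filter on low counts (edgeR adjusted p = 0.0305, 0.00151 and 0.0313). Both settings also called more of all genes in these comparisons, such as 1167 and 1187 against 365 for bIP against bRG. The difference between bIP and bRG also passed in edgeR without aRG library 2, without N library 1 and without N library 2 (edgeR adjusted p = 0.0445, 0.0367 and 0.0368). The 2 bIP libraries differed from each other by 24.8 against 11.01 CPM, and without bIP library 1 the edgeR adjusted p of the test over all populations was 0.486.

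GADD45A, a DNA damage response gene of the same family, showed no called difference. It was at 22.9 and 18.7 CPM in aRG, 13.8 and 10.8 in bRG, 21.7 and 11.4 in bIP, and 15.0 and 6.30 in N. In each population library 1 was the higher, and neighbours in the order of means (aRG, bIP, bRG, N) overlapped. Among relatives that are no members here, GADD45B went from 3.98 ± 0.624 CPM in aRG to 0.25 ± 0.135 in N (log2 fold change -3.98, SE 0.87, edgeR adjusted p = 0.0111), and BTG4, of the BTG family, had means of 0.0432 to 0.745 CPM.

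**Figure D2:**
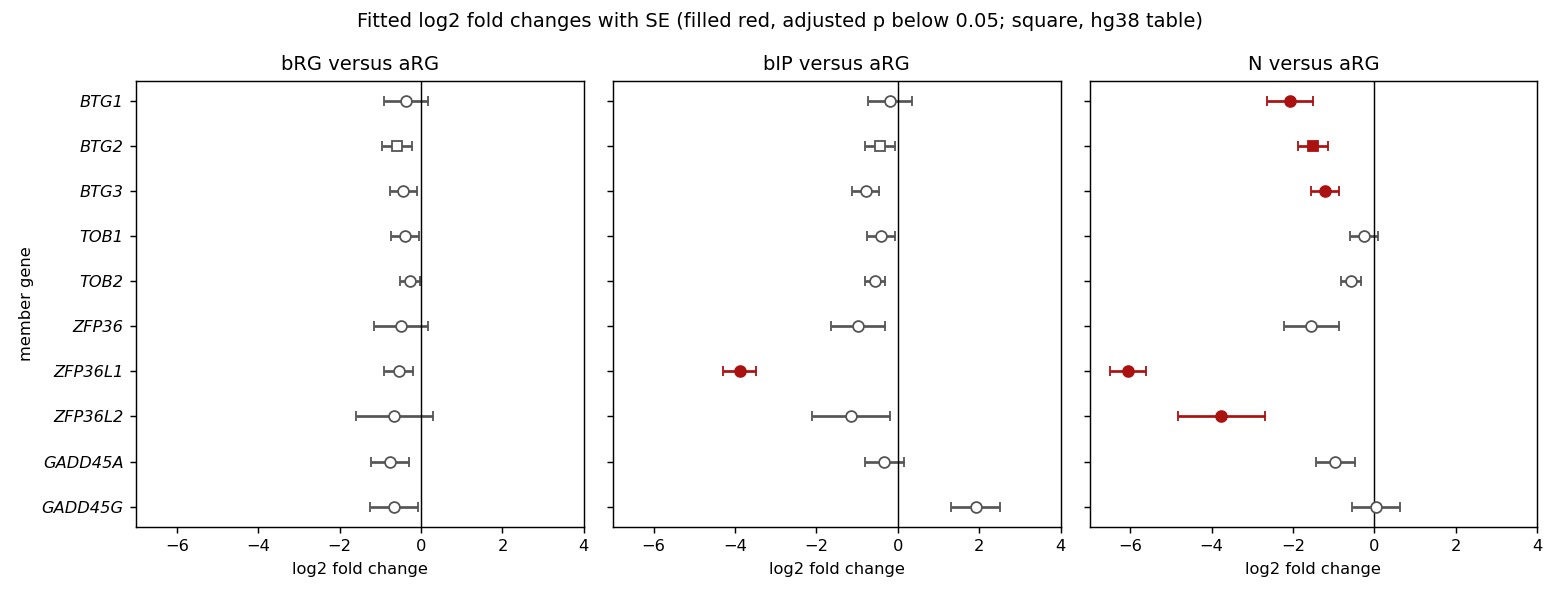
Fitted log2 fold change of each member (points) with its standard error (bars) in bRG, bIP and N, each against aRG, with filled red points past the adjusted threshold and BTG2 (square) from the hg38 fit. All points are left of 0 in bRG against aRG with none called, ZFP36L1 alone is called in bIP at -3.88, and 5 members are called in N.

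In counts, 4 of the 9 members tested on panTro6 were lower in N than in aRG, where 9.67% of all genes tested were called in either direction and 4.8% as lower. They were BTG1, BTG3, ZFP36L1 and ZFP36L2, and on hg38 BTG2 joined them as the fifth of 10 (19.2% of hg38 genes called, 9.59% as lower). The median log2 fold change of the 9 was -1.22, beside -0.076 over all genes. Leaving out aRG library 1 or N library 2 reduced the panTro6 count to 1, which was ZFP36L1, and a fit of aRG and N alone gave 2. Without aRG library 2, which had the largest choroid plexus and mesenchymal sums, 3 were called (BTG1, ZFP36L1 and ZFP36L2).

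In each other comparison that included bIP or N, the 1 member called was ZFP36L1, as lower. The share of all genes called was 2.83% for bIP against aRG (1.5% as lower), 1.03% for bIP against bRG (0.574% as lower), 2.54% for N against bIP (1.48% as lower) and 6.01% for N against bRG (3.39% as lower). Medians of the 9 members in these comparisons were -0.56, -0.28, -0.64 and -0.77 in the same order, and those of all genes were 0.049, -0.0042, -0.096 and -0.11. Libraries did not overlap for 6, 3, 4 and 5 of 9 members in these comparisons and for 6 of 9 in N against aRG, beside 42.8%, 39.5%, 45.1%, 49.1% and 49.2% of genes, so most of these shares lay near those of all genes. The test over all 4 populations called 2 of 9, ZFP36L1 and GADD45G, against 7.62% of genes.

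Between the kinds of radial glia, bRG and aRG, edgeR called 0 of 9 members, where it called 0.00283% of genes, a single gene. At an unadjusted p below 0.05 the count was also 0, against 3.73% of genes, and DESeq2 called 0 with 0 at its unadjusted p. The fitted change was below 0 for 9 of 9 members, from -0.76 to -0.28 with a median of -0.49, while 48.6% of all genes were below 0 and their median was 0.019. Libraries of the populations did not overlap for 3 of 9 members, against 31.6% of genes. The sign was not stable for 2 of them: that of BTG1 turned to 0.036 without bRG library 2, and that of ZFP36 to 0.52 without aRG library 1 and 0.10 without bRG library 2. Over the same libraries the 25 mitosis genes had a median of -1.14, with 0 called, and the choroid plexus and mesenchymal sums were higher in aRG. The 10 neuron markers were above 0 for 9 of 10 with a median of 1.17 and 0 called, and their sums were 1027 and 1900 CPM in bRG and 647 and 879 in aRG. The part of these in the members' values was not tested.

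The library number went with the level of several members. BTG1, ZFP36, ZFP36L1, ZFP36L2 and GADD45A were higher in library 1 than in library 2 in all 4 populations, which is 5 of 9 (55.6%) beside 11.5% of all genes tested. The reverse order in all 4 was found for 0 of 9 members and 10.8% of genes. The MALAT1 share was higher in library 1 of every population too, and so was the summed level of 28 immediate early and dissociation response genes, where the sums of libraries 1 and 2 were 1503 and 1207 CPM (aRG), 1311 and 1070 CPM (bRG), 893 and 751 CPM (bIP) and 1019 and 763 CPM (N). Single genes of this list differed. In aRG libraries 1 and 2, EGR1 was at 263 and 59.1 CPM, KLF6 at 262 and 370, and JUN at 31.1 and 31.2. In bIP, EGR1 and FOS were lower in library 1, so the sum does not describe every gene of the list. The summed levels of the CCR4-NOT and poly(A) list (1977 and 1732 CPM in aRG) and of the other AU-rich element binders (2200 and 1950 CPM in aRG) were likewise higher in library 1 of all 4 populations. The former sum includes PABPC1, a poly(A)-binding protein gene at 737 and 527 CPM in aRG. CNOT1, the scaffold of the CCR4-NOT complex, was lower in library 1 of all 4 populations (101 and 128 CPM in aRG), so the sum does not describe the whole complex. The part of dissociation, RNA quality or library preparation in these members was not tested.

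**Figure D3:**
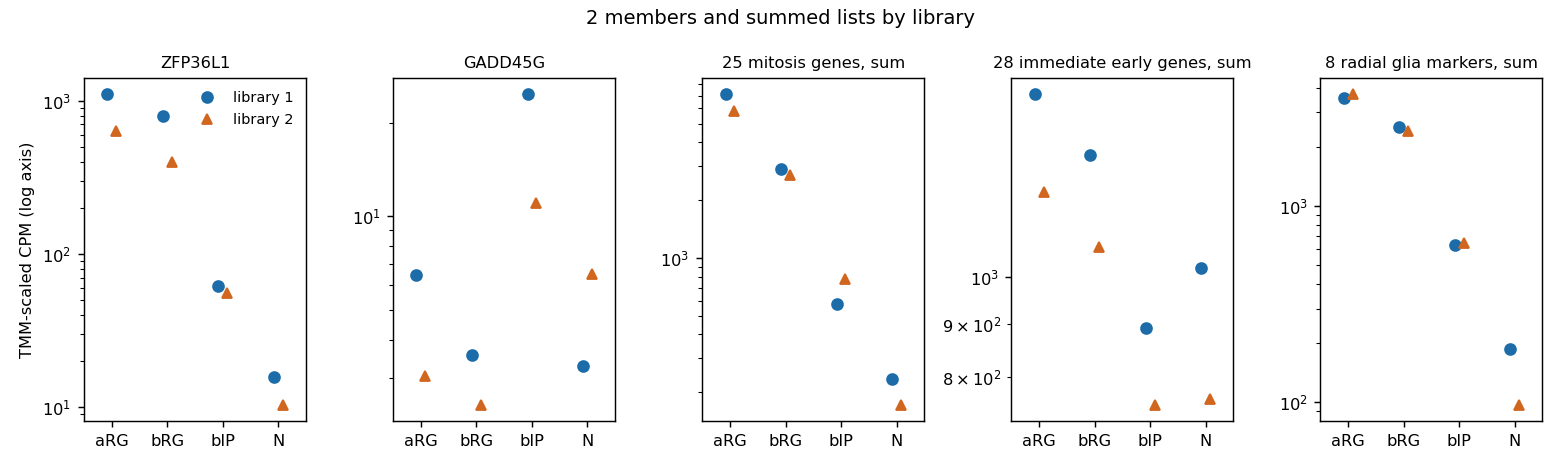
Level by library (log axes, TMM-scaled CPM) of ZFP36L1, GADD45G and the summed levels of 25 mitosis genes, 28 immediate early genes and 8 radial glia markers in the 4 populations. The ZFP36L1 points descend from 1105 to 10.3 CPM beside the mitosis sum (7128 to 171) and the radial glia sum (3710 to 96.5), and the immediate early sum lies between 751 and 1503.

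Immediate early genes other than members did not share a single direction. In N against aRG, 7 of 28 were lower and 2 higher, with a median of -0.51. ATF3, a stress transcription factor, was at -3.84 (SE 0.47, edgeR adjusted p = 0.000243), and the growth response factor EGR1 at -4.68 (SE 0.76, edgeR adjusted p = 0.00165). NR4A3, a nuclear receptor induced by activity, rose by 3.73 (SE 0.49, edgeR adjusted p = 0.00039), and JUN by 1.39 (SE 0.31, edgeR adjusted p = 0.0116). In bIP against aRG 5 were lower and 0 higher, FOS among them, whose mean was 49.1 ± 16.8 CPM in aRG, 42.2 ± 8.54 in bRG, 1.35 ± 1.26 in bIP and 2.99 ± 2.94 in N. Like ZFP36, EGR1 was uneven between libraries of radial glia, with a mean of 161 ± 144 CPM in aRG.

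The machinery that BTG, TOB and ZFP36 proteins recruit was counted in the same comparisons. Of 17 genes of the CCR4-NOT complex, the PAN2-PAN3 and PARN deadenylases and the poly(A)-binding proteins, 0 were called in any of the 6 comparisons, and their median in N against aRG was 0.11, beside -1.22 for the members. The smallest adjusted p in that comparison was that of CNOT1, the scaffold of the complex, at -0.85 (SE 0.26, edgeR adjusted p = 0.0602). Of 10 genes tested for decapping and decay from the 5' end, 1 was called in N against aRG, the decapping enzyme DCP2, at -0.86 (SE 0.24, edgeR adjusted p = 0.0455). Among 12 other AU-rich element binders and kinases that act on the ZFP36 family, 1 was called there, the kinase MAPKAPK3, at -1.90 (SE 0.47, edgeR adjusted p = 0.0221). With 9.67% of all genes called in N against aRG, 1 of 10 and 1 of 12 are shares near that of all genes.

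Proteins that bind or act with GADD45 fell into cell cycle genes and others. In N against aRG 4 of 11 were lower and 0 higher, namely CCNB1 (-5.58, edgeR adjusted p = 1.79e-06), CDK1 (-5.85, edgeR adjusted p = 2.23e-06), the demethylation enzyme TET1 (-1.52, edgeR adjusted p = 0.00496) and the replication clamp PCNA (-2.00, edgeR adjusted p = 0.00731). In bIP, where GADD45G was highest, CCNB1 and CDK1 were both lower than in aRG, at 23.6 ± 2.84 and 20.0 ± 3.33 CPM against 280 ± 22.4 and 123 ± 10.3. The other 9 genes of that list were not called in bIP against aRG.

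Other brakes on the cell cycle moved in both directions. In N against aRG 3 of 12 CDK inhibitors and quiescence genes were lower and 2 higher. CDKN2C was at -5.87 (SE 0.69, edgeR adjusted p = 0.000186) and RBL1 at -1.38 (SE 0.34, edgeR adjusted p = 0.0210), while CDKN2D rose by 2.15 (SE 0.36, edgeR adjusted p = 0.00222), from 17.8 ± 6.09 to 79.1 ± 4.53 CPM. CDKN1A, the p21 gene, was low throughout, at 2.42 ± 0.0338 CPM in aRG and 0.103 ± 0.0369 in N (-4.50, edgeR adjusted p = 0.0293).

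Most mitosis genes fell from aRG to bIP and from aRG to N. Of 25, 24 were lower in bIP than in aRG (median -3.27) and 24 lower in N than in aRG (median -4.95). MKI67, the antigen of cycling cells, had means of 767 ± 118 CPM in aRG, 294 ± 10.2 in bRG, 66.8 ± 33.3 in bIP and 4.24 ± 0.449 in N. TOP2A, the mitotic topoisomerase, went from 1031 ± 194 CPM in aRG over 425 ± 32.5 and 89.6 ± 24.4 to 14.9 ± 2.28 in N. The 4 members lower in N than in aRG (ZFP36L1, BTG1, BTG3 and ZFP36L2) thus went in the direction of MKI67 and TOP2A, and GADD45G had its highest mean in bIP, where both were between their extremes.

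Proneural factors and genes of the Notch pathway included many that, like GADD45G, had high levels in bIP. In bIP against aRG 8 of 15 tested were higher and 1 lower, with a median of 2.37, and in N against bIP 0 were higher and 9 lower, with a median of -2.42. DLL3, a Notch ligand family member, rose in bIP by 4.65 (SE 0.50, edgeR adjusted p = 0.000606), and HES1, a Notch effector that holds progenitors undifferentiated, was lower by -4.05 (SE 0.40, edgeR adjusted p = 0.000539). ZFP36L1 and HES1 had the same order of means, HES1 being at 300.2 ± 104 CPM in aRG, 142 ± 42.9 in bRG, 18.1 ± 6.82 in bIP and 3.51 ± 0.881 in N.

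**Figure D4:**
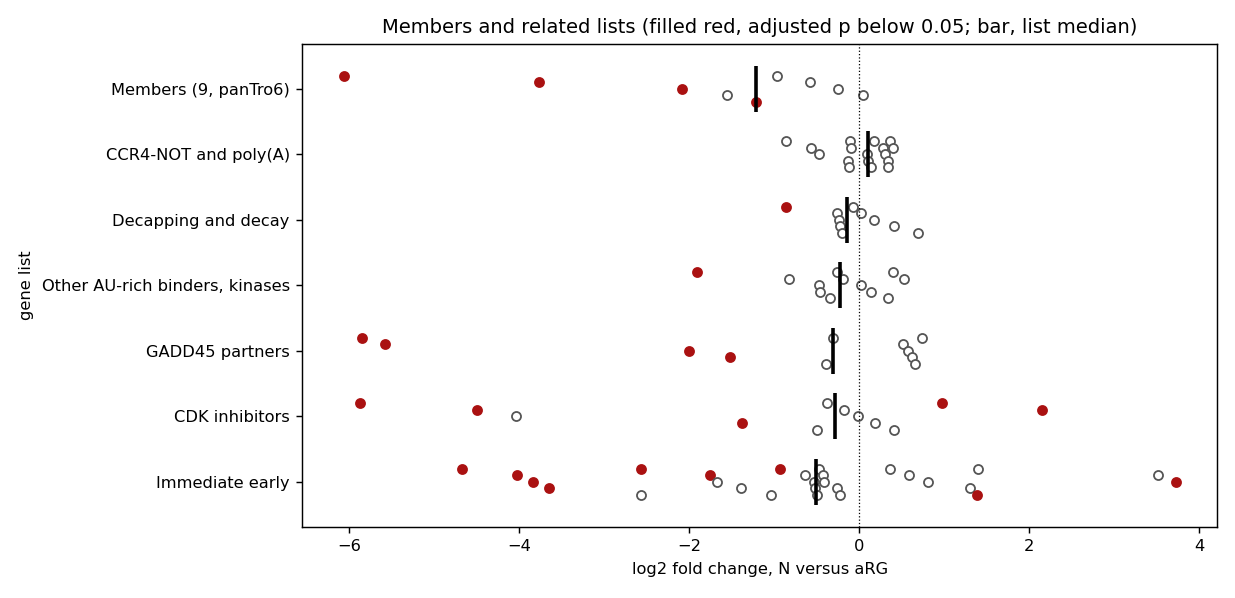
Log2 fold change in N against aRG of every tested gene (points, filled red past the adjusted threshold) in the members and 6 related lists, with a bar at each median. The members have a median of -1.22, the CCR4-NOT and poly(A) list has one of 0.11 with no filled point, and the immediate early list holds filled points on both sides of 0.

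Correlations between members across the 8 libraries took both signs. Among the 45 pairs of the 10 members, Pearson correlations of log2(CPM + 1) ran from -0.49 for TOB2 with GADD45G to 0.93 for BTG3 with ZFP36L2. BTG1 with ZFP36L2 was also at 0.93, and ZFP36L1 with GADD45G at -0.33. These values describe 8 libraries that share populations, library numbers and depth, and carry no test.

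By the same measure, over 10326 genes with a mean of at least 10 CPM (10541 on hg38 for BTG2), each member was compared with the 3 genes most like it. For ZFP36L1 these were TNFAIP8 (0.997), the receptor kinase gene AXL (0.995) and PROM1 (0.995), which encodes an apical membrane protein and was at 63.4 ± 1.03, 51.7 ± 14.1, 11.7 ± 1.36 and 3.09 ± 0.654 CPM in aRG, bRG, bIP and N. For ZFP36L2 they were PDP2 (0.989), CDYL (0.989) and RAP1B (0.983), and for ZFP36 they were RAB11FIP2 (0.988), AHSA2P (0.988) and TRIM27 (0.985). For BTG1 they were CHROMR (0.989), DACH1 (0.988) and CHRDL1 (0.987), and DACH1 had the same uneven N libraries as BTG1, at 53.9 and 7.68 CPM.

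The genes nearest to BTG2 were ZC3H12C (0.968), RAB27A (0.966) and PHACTR2 (0.957), and those nearest to BTG3 were COPG2 (0.991), SERP1 (0.986) and SON (0.975). TOB1 had lower values, with TBCA (0.932), LSM12 (0.914) and SRP9 (0.905). TOB2 went with DCP2, RHOA and LRRC19, each at 0.988. GADD45A went with RPS9 (0.972), ATP5MC2 (0.970) and RPS19 (0.955), and GADD45G with ATP11A (0.954), C18orf32 (0.920) and ST6GAL2 (0.920). All these genes were picked as the highest of 10326 (10541 for BTG2) over 8 libraries, so their values carry no test and show no link in function.

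The genome used for counting mattered most for BTG2. Over the shared symbols, panTro6 totals were 1.70 to 1.74 times hg38 totals in the 8 libraries, and the ratio for the 9 members with counts in both tables ran from 1.67 (ZFP36L1) to 2.29 (ZFP36L2). For BTG2 it was 0 in every library. Among symbols in both tables, 12403 averaged at least 50 hg38 counts, and 380 of them were at 0 in every panTro6 library in the same way, and whether the annotation, the assembly or the counting leaves them out was not tested. The other members gave the same calls in all 6 comparisons on both genomes, with shares of all hg38 genes called of 0.00612% in bRG against aRG, 7.28% in bIP against aRG, 2.96% in bIP against bRG, 5.74% in N against bIP and 12.2% in N against bRG. The hg38 test over all 4 populations (15.5% of genes called) also called ZFP36L1 and GADD45G.

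**Figure D5:**
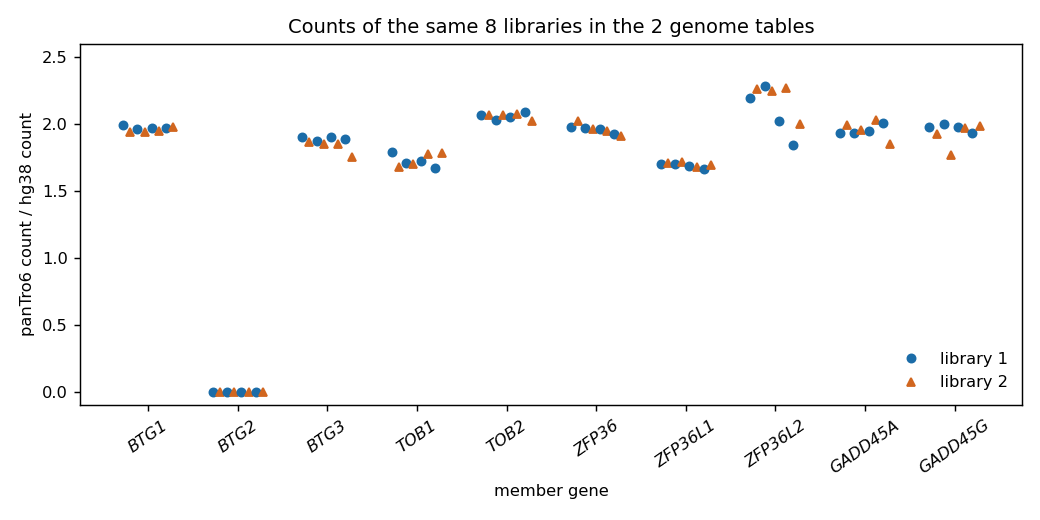
Ratio of the panTro6 count to the hg38 count for each member, with a point for each of the 8 libraries. The members with counts lie between 1.67 and 2.29, and BTG2 lies at 0 in all libraries.

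Near-identical or overlapping loci could share reads with some members. Pseudogene rows held few counts per library, from 0 to 40 for BTG1P1, 0 to 19 for BTG3P1 and 4 to 62 for TOB2P1, and BTG3-AS1 held 53 to 274. In the NHGRI_mPanTro3-v2.0 assembly ZFP36 overlaps PAF1, a transcription elongation gene, which was at 56.6 ± 12.5 CPM in aRG and 63.6 ± 15.1 in N and so did not show the decline in means of ZFP36. BTG1, TOB1 and ZFP36L2 overlap loci without a regular symbol there, and values of these members are uncertain to that extent.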

How the data were processed

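Smart-seq2-type libraries were made from the total RNA of 10000 sorted cells each, per the labels' protocols, with no molecular identifiers named and no step that marks strand, so PCR copies are counted. The authors deposited raw counts by gene symbol, with a panTro6 and an hg38 table. STAR was used, per the submitters' processing notes; version, annotation, counting tool and strandedness are not given in the sources. A row without a gene name (0.00545% to 0.00772% of panTro6 counts) was left out, and no column was unmatched. The values may count both mates of a pair, so halved counts were also tested. Positions on panTro6 were not used here, and no sequences are printed.

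From these counts, genes were filtered with filterByExpr (35382 kept on panTro6, 16353 on hg38), scaled by TMM, and fitted with edgeR 4.0.16 (glmQLFit, glmQLFTest, 1 coefficient per population, 8 libraries, two-sided, Benjamini-Hochberg over all genes tested, threshold 0.05) in R 4.3.3. The SE of a fold change was derived from the F statistic. On simulated counts for bIP against aRG (32535 genes, dispersion 0.15, while the data had a common biological coefficient of variation of 0.6285, a larger spread), 98% of 100 genes changed 16-fold and 32% of 100 changed 4-fold were recovered, with 4 false calls. Library totals were 24649971 to 33245892 on panTro6, and the chi-square per gene between libraries of the same population was 46.7 to 73.5, where counting noise gives about 1. Intervals and floors (3 counts) cover counting error only.

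The members and the gene lists were chosen with earlier results of these data known, and the results of a further list are not reported here. Named besides the members were up to 4 genes with the smallest adjusted p per list and comparison described, the 3 nearest genes of each member, FOS, JUN, EGR1, MKI67 and TOP2A, and marker, overlapping and pseudogene rows. Alternatives were DESeq2 1.42.0, its size factors, no filter, at least 5 CPM in 2 libraries, hg38, halved counts, 2 populations only, a replicate block, a robust fit and leaving out each library. The alternatives for BTG2 on hg38 were chosen after seeing the data.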

Additional observations from a re-analysis of the deposited data

Results flagged for a closer look

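BTG2 had counts in a table that the main comparisons do not use. Its lowest hg38 count over the 8 libraries was 179, while its panTro6 row was at 0 in every library.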

How the results depend on the processing

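Alternatives were tallied for members' fold changes with an unadjusted edgeR p below 0.05 and for all those of bRG versus aRG. Other fold changes were left out, so the tally does not describe how stable their signs are. Over these 553 alternatives, 505 kept their direction and side of the threshold, 32 newly passed it, 13 no longer passed it and 3 changed sign. The sign changes came from leaving out 1 library in bRG versus aRG, where BTG1 ranged from -0.99 to 0.036 (the value without bRG library 2) and ZFP36 from -1.55 to 0.52 (0.10 without bRG library 2). ZFP36L1 kept its call in 17 of 17 alternatives in 4 of its 5 comparisons. DESeq2 called 2 members in bIP versus aRG, 2 in bIP versus bRG, 3 in N versus bIP and 2 in N versus bRG, against 1 each with edgeR. Its calls over all genes rose too, to 2282, 1167, 2577 and 3835 from 1002, 365, 900 and 2128. With no filter on low counts the numbers of members were 2, 2, 4 and 3, and 6 against 2 in the test over all populations. Calls over all genes were then 2159, 1187, 2264 and 3280, and 4649 against 2695. Fitting aRG and N alone gave 2 members against 4. In N versus aRG, no filter added ZFP36 and the filter of at least 5 CPM in 2 libraries added TOB2, for 5 members each. Calls over all genes there were 4526 and 3653, against 3421. Leaving out single libraries gave 1 to 2 members in bIP versus bRG, 0 to 3 in N versus bIP (0 without N library 2), 1 to 4 in N versus aRG, 1 to 3 in N versus bRG and 1 to 4 in the test over all populations. The cause of these changes was not tested.

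The replicate block (library number as a term) gave 2 members in bIP versus bRG, 3 in N versus bIP, 5 in N versus aRG, 3 in N versus bRG and 5 in the test over all populations. In the same order the block called 1121, 2165, 4960, 3594 and 4399 of all genes, also more than the fit reported. It newly called GADD45G in bIP versus bRG (edgeR adjusted p = 0.0306), ZFP36 in N versus aRG (-1.48, edgeR adjusted p = 0.0117), BTG1 in N versus bIP and N versus bRG (edgeR adjusted p = 0.00666 and 0.00831) and ZFP36L2 in the same comparisons (edgeR adjusted p = 0.0182 and 0.00417). Deviations of same-numbered libraries correlated at 0.123 to 0.266 between populations, but the labels do not say what a number shares, and with 2 numbers a comparison the pairing is not established. Over all genes, calls ranged over the alternatives from 0 to 215 in bRG versus aRG (1 as reported), 582 to 2282 in bIP versus aRG (1002), 140 to 1187 in bIP versus bRG (365), 415 to 2577 in N versus bIP (900), 2382 to 5303 in N versus aRG (3421), 1190 to 3835 in N versus bRG (2128) and 2158 to 4914 over all populations (2695). Depth limits ZFP36L2, with 2 counts in N library 2.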
